A study of Mus musculus with 50 samples.

Results

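Trp53 and 9 genes that the p53 protein is known to activate were followed across irradiated and unirradiated mouse sarcomas in which Trp53 had been deleted locally. The genes were taken by name: a row of the gene count table was kept when its Ensembl identifier belonged to Trp53, Cdkn1a, Mdm2, Bax, Ccng1, Phlda3, Bbc3, Gdf15, Zmat3 or Sesn2. All 10 were found among 37469 identifiers, and all 10 passed a filter on low counts that left 19327 genes. In mm10 with GENCODE M21, Trp53 spans chr11:69580359-69591873 on the plus strand, Cdkn1a chr17:29090976-29100727 on the plus strand, Mdm2 chr10:117688875-117710758 on the minus strand and Gdf15 chr8:70629393-70632456 on the minus strand, and counts cover their exons.

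Whole tumors from 129/SvJae mice were measured by RNA sequencing, with 48 tumors in 8 groups. Primary tumors (8 per group) arose in the gastrocnemius of p53FL/FL mice, 6 to 10 weeks old, after a local injection of adenovirus carrying Cre recombinase and then 300 µg of the carcinogen 3-methylcholanthrene (MCA). Transplant tumors (4 per group) grew from 50000 cells of line 402230, a single line from one such primary tumor, placed in the same muscle of syngeneic mice, whose age is not given in the sources used here. Each animal received 200 µg of the anti-PD-1 antibody muDX400, which blocks an inhibitory receptor on T cells, or an isotype control antibody, immediately followed by 0 or 20 Gy to the hind limb, and tumors were taken 3 days later. Every primary tumor therefore carried a local Trp53 deletion by design, while vessels, muscle and immune cells reached by no Cre virus kept a Trp53 gene, and host cells in transplants had never met Cre. A further 2 libraries of line 402230 were labelled as its parental primary tumor and as the cell line, with no replicate.

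p53 is a transcription factor that is held low by Mdm2, the ubiquitin ligase that marks it for destruction, and that accumulates when DNA is broken. It then activates genes that halt the cell cycle, such as Cdkn1a, and genes that promote cell death, such as Bax and Bbc3, together with Mdm2 itself, which closes a feedback loop. Several of these genes are also switched on by other routes, among them the integrated stress response for Gdf15 and Sesn2.

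The promoters of 3 members held the 2-part sequence that p53 binds, and these are shown as the members' matches to the factor's known binding sequence. Mdm2 and Gdf15, which were called higher in the same 2 primary comparisons as these 3 genes, held no such pair in their windows. The p53 half-site has 10 bases, and 2 of them side by side form the full site. RefSeq promoter windows (GRCm38.p6, 250 bases before to 50 after the start) were found for 9 members, in 13 windows, and none was matched for Zmat3. Both strands were covered, since the half-site reads the same on each. A match was 2 half-sites with at most 1 base between them and at most 2 mismatches outside the core C and G of each. The lines run 5′ to 3′ on the gene's strand, with the half-sites in capitals and 20 bases on each side.
Cdkn1a: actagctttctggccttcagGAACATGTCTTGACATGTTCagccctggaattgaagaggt
Ccng1: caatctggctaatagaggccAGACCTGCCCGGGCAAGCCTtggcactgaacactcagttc
Bax: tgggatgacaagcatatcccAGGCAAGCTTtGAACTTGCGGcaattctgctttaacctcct
Cdkn1a had 2 windows, and 1 of them held the pair. That site lay at chr17:29090928-29090947 on the plus strand, starting 51 bases before the start site of its own window, with 1 mismatch. The Ccng1 site lay at chr11:40755462-40755481 on the minus strand, starting 195 bases upstream, also with 1 mismatch. The Bax site lay at chr7:45467079-45467099 on the minus strand, starting 201 bases upstream, with 1 base between the half-sites and 2 mismatches. Such a pair was present in 0.682% of all 32851 promoter windows. A single exact half-site, present in 8.36% of windows, was found for 5 members, Trp53, Cdkn1a, Mdm2, Bax and Ccng1. A match describes the letters only, and windows of this length leave out sites in introns.

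The labels of the 2 unreplicated libraries went against their markers. The library labelled parental primary tumor had a summed level of 0.546 CPM (read counts relative to the scaled library total) over 4 leukocyte genes, and 7 of 8 T cell genes were at 0. Its endothelial list (8 genes) summed to 2.93 CPM and its skeletal muscle list (9 genes) to 3.55 CPM. The library labelled cell line summed to 318, 504 and 214 CPM over the same 3 lists, and held the macrophage gene Csf1r at 233 CPM against 0.500 CPM in the other. Immune and vessel genes were thus nearly absent from the library labelled tumor and present in the one labelled culture. Both are therefore named by label, and neither entered a test that the text leads with. In the 48 tumors, fibroblast and mesenchymal genes summed to between 7865 and 70372 CPM and epithelial genes to between 4.14 and 435 CPM.

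Library totals ran from 31810461 to 54008259 counts, so 1 CPM rested on at least 31.8 counts. Values below are CPM after scaling by trimmed mean of M values, with fold changes from edgeR's quasi-likelihood test over all 48 tumors and p-values adjusted over all 19327 genes. A gene was called at an adjusted p under 0.05.

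Trp53 itself was read in every tumor, at 20.2 to 60.7 CPM. In untreated isotype primary tumors it was lowest at 20.2, with a median of 25.0 and a highest value of 28.0 CPM. Irradiated isotype primary tumors ran from 24.1 through a median of 28.9 to 60.7 CPM. Only 4 of these 8 tumors lay above every untreated one, and the spread of the irradiated group was wide. Trp53 was called higher after radiation in isotype primary tumors (log2 fold change 0.52, SE 0.18, edgeR adjusted p = 0.0343), a call that was lost with limma voom (0.45, adjusted p = 0.0687) and with no filter on low counts (0.51, edgeR adjusted p = 0.0638). The anti-PD-1 primary groups, with medians of 25.7 and 31.5 CPM at 0 and 20 Gy, gave 0.11 (SE 0.18, edgeR adjusted p = 0.737).

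In transplants, the untreated isotype tumors had Trp53 at 26.1, 29.1, 38.4 and 29.8 CPM. The irradiated ones had 40.5, 43.7, 42.2 and 40.6 CPM, each above all of the untreated tumors. With anti-PD-1 the values were 37.8, 26.3, 45.8 and 25.7 CPM at 0 Gy and 39.8, 45.0, 40.2 and 44.5 CPM at 20 Gy, so these groups overlapped. Neither transplant comparison was called, with log2 fold changes of 0.44 (95% interval -0.07 to 0.94) and 0.32 (-0.18 to 0.82). Scaled over all 50 libraries, the library labelled parental tumor had Trp53 at 11.8 CPM from 517 counts, below every untreated isotype tumor, and the one labelled cell line had 19.8 CPM from 915 counts.

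A gene-level count does not check the deletion. Reads over exons left in place by Cre count in full, and which exons are lost is not given in the sources used here. A pseudogene, Trp53-ps, is annotated in the mouse genome and can share reads with Trp53, which makes its level uncertain. In whole tumors, fewer cells of a type and less RNA per cell cannot be told apart, so these levels join tumor cells with host cells.

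**Figure D1:**
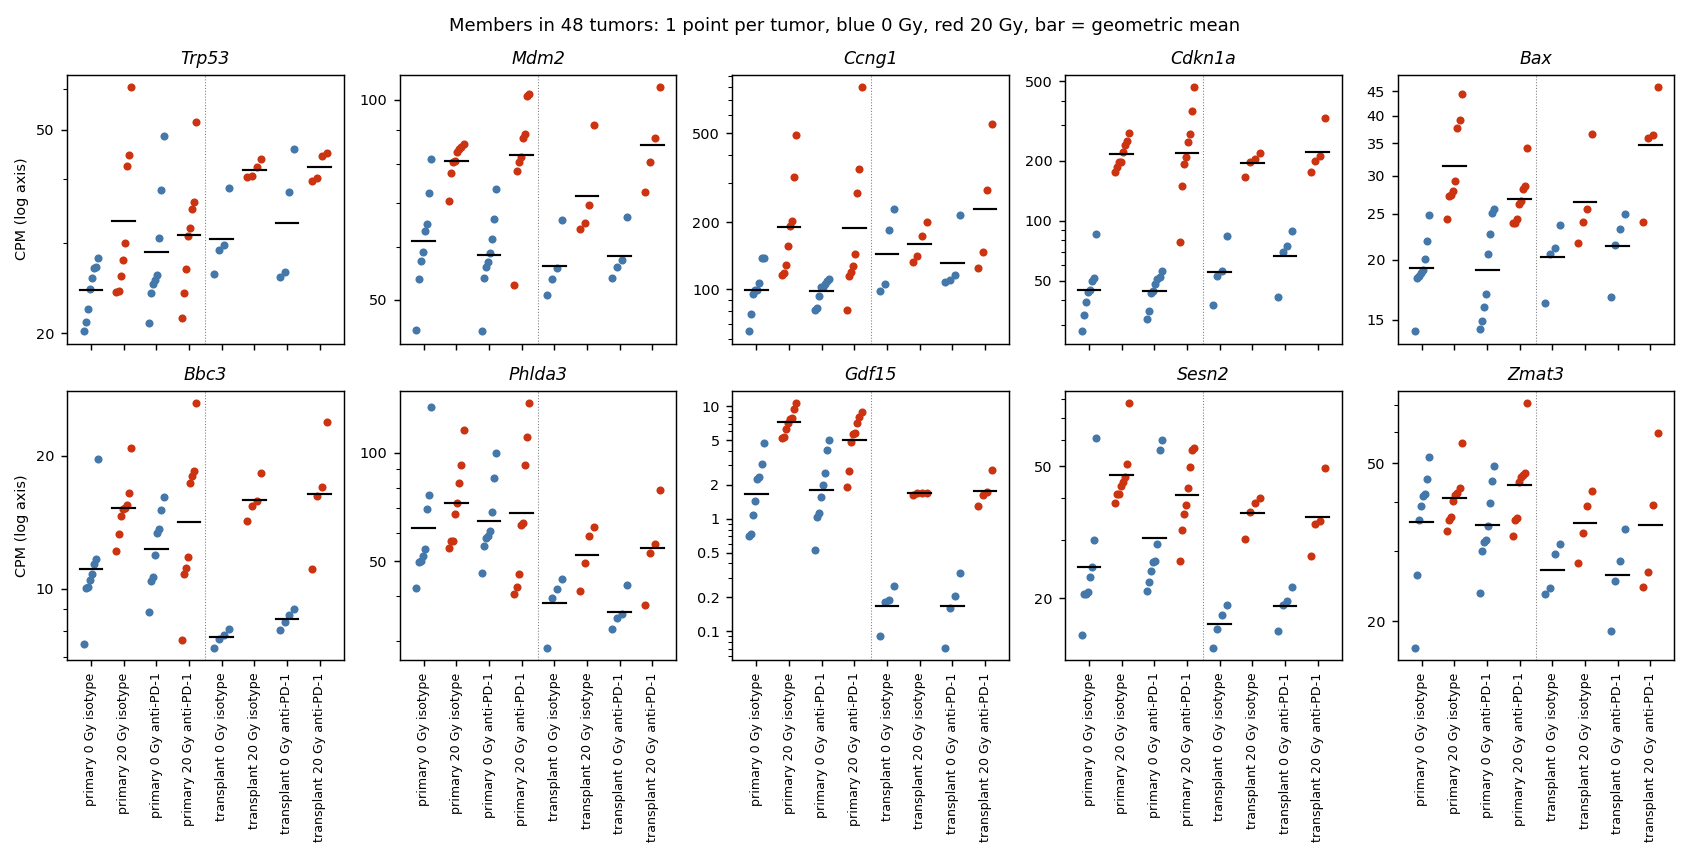
CPM of each of the 10 genes (log axes) in 48 tumors by model, dose and antibody, 1 point per tumor sorted by value within its group, with a bar at the geometric mean. Cdkn1a at 20 Gy separated from 0 Gy in isotype primary tumors (176 to 276 against 28.0 to 85.6 CPM), and Gdf15 was lower in untreated transplants (0.0897 to 0.252 CPM, isotype) than in untreated isotype primary tumors (0.696 to 4.72 CPM).

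In untreated tumors, members differed widely in level, and levels between genes are compared here only per kilobase of exon. In isotype primary tumors the order by mean CPM per kilobase ran Phlda3 (42.3 ± 18.9, SD, n = 8), Ccng1 (29.2 ± 7.36), Cdkn1a (13.3 ± 4.91), Bax (12.3 ± 1.94), Mdm2 (12.2 ± 2.21), Sesn2 (7.79 ± 4.12), Trp53 (6.04 ± 0.728), Bbc3 (5.39 ± 1.67), Zmat3 (3.27 ± 0.966) and Gdf15 (1.10 ± 0.741). The ranges of every neighboring pair in that order overlapped. In untreated isotype transplants Ccng1 led at 43.9 ± 17.9 (SD, n = 4), followed by Phlda3 at 24.8 ± 4.44 CPM per kilobase. From Mdm2 downward the transplant order was clear of overlap between neighbors, with Mdm2 at 11.1 ± 1.30, Trp53 at 7.63 ± 1.30, Sesn2 at 4.84 ± 0.610, Bbc3 at 3.65 ± 0.149, Zmat3 at 2.37 ± 0.339 and Gdf15 at 0.0962 ± 0.0361 CPM per kilobase. Over all 48 tumors Gdf15 spanned the widest range, 0.0715 to 10.7 CPM, and Mdm2 the narrowest, with a highest value 2.33 times its lowest.

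The question of whether radiation moved p53 targets was asked 4 times in tumors that shared no samples, once in each model with each antibody. After 20 Gy, Cdkn1a, which blocks cyclin-dependent kinases and halts division, and Gdf15, a secreted stress hormone, were higher in all 4 comparisons. Only 69 of the 19327 genes (0.357%) were called higher in all 4. The fold change was positive for all 10 members in all 4 comparisons, though many did not pass the test. How many of all genes were positive in all 4 was not counted. In some alternative fits the sign turned for Trp53, Ccng1 and Phlda3. The largest such value was Ccng1 in isotype transplants with the leukocyte list as a covariate (-0.82). In isotype primary tumors 7 of 10 members were called higher, where 9.19% of all genes were, and in anti-PD-1 primary tumors 5 were, where 7.92% were. In transplants 3 members were called with isotype, where 1.82% of genes were, and 2 with anti-PD-1, where 0.538% were. No member was called lower, where 9.1%, 3.25%, 0.103% and 0.0569% of all genes were, in the same order of comparisons.

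The members' median log2 fold change was 0.62 in isotype primary tumors, 0.41 in anti-PD-1 primary tumors, 0.44 in isotype transplants and 0.82 in anti-PD-1 transplants, beside medians over all genes of -0.01, 0.02, -0.03 and 0.01. Groups did not overlap, with every irradiated tumor above every unirradiated one, for 2 members in isotype primary tumors (1.45% of all genes), 1 in anti-PD-1 primary tumors (0.279%), 5 in isotype transplants (9.03%) and 5 in anti-PD-1 transplants (5.63%). With 4 tumors a side such separation was common among all genes, so it weighs less in transplants than in primary tumors.

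**Figure D2:**
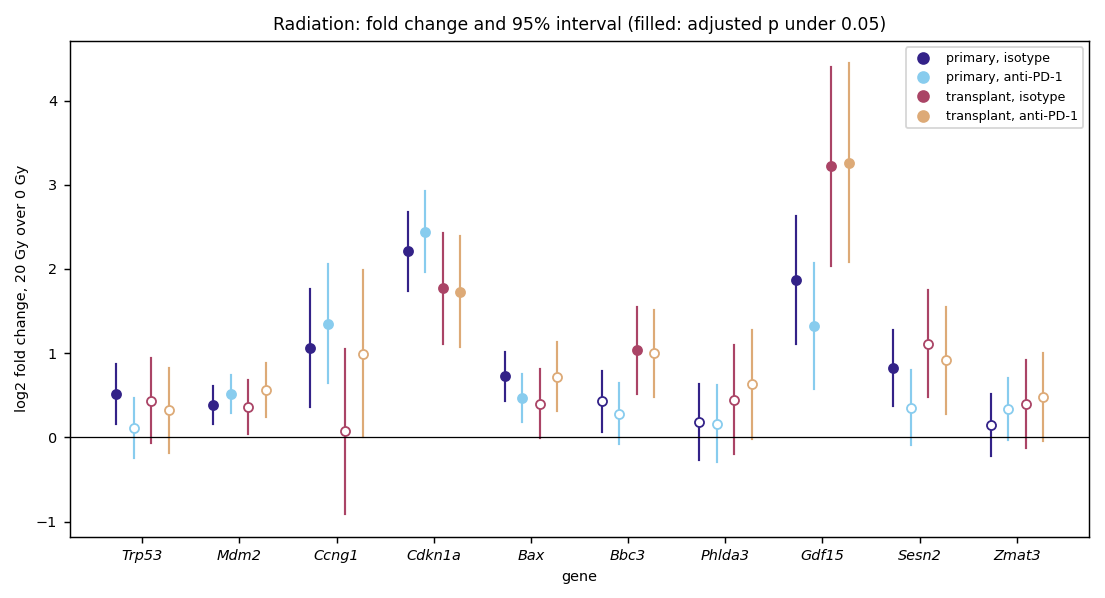
Log2 fold change of each member, 20 Gy over 0 Gy, with its 95% interval, in 4 comparisons that share no tumors (n = 8 against 8 in primary tumors, 4 against 4 in transplants). Filled points passed an adjusted p of 0.05. Cdkn1a (1.73 to 2.44) and Gdf15 (1.32 to 3.26) were filled in all 4, and Phlda3 and Zmat3 in none.

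Among the genes that feed back on p53, Mdm2 passed the test in both primary comparisons with a small rise after 20 Gy. With isotype it ran from 45.1 through a median of 61.2 to 81.4 CPM at 0 Gy and from 70.3 through 82.2 to 85.9 CPM at 20 Gy (log2 fold change 0.38, SE 0.11, edgeR adjusted p = 0.0133). With anti-PD-1 the medians were 57.9 and 84.8 CPM (0.51, SE 0.11, edgeR adjusted p = 0.00224). The groups overlapped in both. In transplants the change had a similar size without passing the test, at 0.36 (edgeR adjusted p = 0.323) with isotype and 0.56 (edgeR adjusted p = 0.0721) with anti-PD-1. In the latter the values were 66.7, 53.9, 57.4 and 56.1 CPM at 0 Gy and 80.7, 104.6, 87.5 and 72.5 CPM at 20 Gy, which did not overlap. The isotype primary call was lost when the library labelled parental tumor was added to the unirradiated group (0.31, edgeR adjusted p = 0.0578).

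Ccng1, which encodes cyclin G1, a partner of a phosphatase that acts on Mdm2, was called higher in both primary comparisons. With isotype its log2 fold change was 1.07 (SE 0.35, edgeR adjusted p = 0.0266), with a median of 99.3 CPM at 0 Gy and 174 CPM at 20 Gy. With anti-PD-1 it was 1.35 (SE 0.35, edgeR adjusted p = 0.00919), with medians of 102.2 and 135.5 CPM. The highest tumors of the irradiated isotype and anti-PD-1 groups reached 488 and 805 CPM. With limma voom the anti-PD-1 call was lost (0.96, adjusted p = 0.0562).

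The same 2 tumors had the highest skeletal muscle sums of the series, 43583 and 75275 CPM, where the medians of their groups were 1306 and 1778 CPM. In 6 of the 8 groups the tumor with the most Ccng1 was the one with the highest muscle sum, and in the other 2 it had the second highest. For Cdkn1a the tumor with the most was the one with the highest muscle sum in 5 groups and the second highest in 2 more, and its radiation fold changes with the muscle list as a covariate were 2.09, 2.37, 1.84 and 1.74 in isotype primary, anti-PD-1 primary, isotype transplant and anti-PD-1 transplant tumors, all called. Without the 2 tumors of highest muscle sum, Ccng1 had log2 fold changes of 0.81 (edgeR adjusted p = 0.0353) in isotype and 0.82 (edgeR adjusted p = 0.0618) in anti-PD-1 primary tumors. The latter was no longer called. With the mean of the muscle list as a covariate, those of Ccng1 were 0.66 (edgeR adjusted p = 0.0590) and 1.04 (edgeR adjusted p = 0.00398). In transplants the irradiated isotype tumors had Ccng1 at 141.7, 173, 201 and 132.1 CPM and the untreated ones 98.6, 105.5, 229 and 184 CPM, which overlapped (log2 fold change 0.07, 95% interval -0.91 to 1.05). With anti-PD-1 they had 146.3, 549, 277 and 124.9 CPM at 20 Gy and 215, 108.4, 116.5 and 110.7 CPM at 0 Gy, which also overlapped (0.996, interval 0.01 to 1.99, edgeR adjusted p = 0.376). That estimate was about as large as those in primary tumors and was not called. The part of muscle in the result was not tested beyond these fits.

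**Figure D3:**
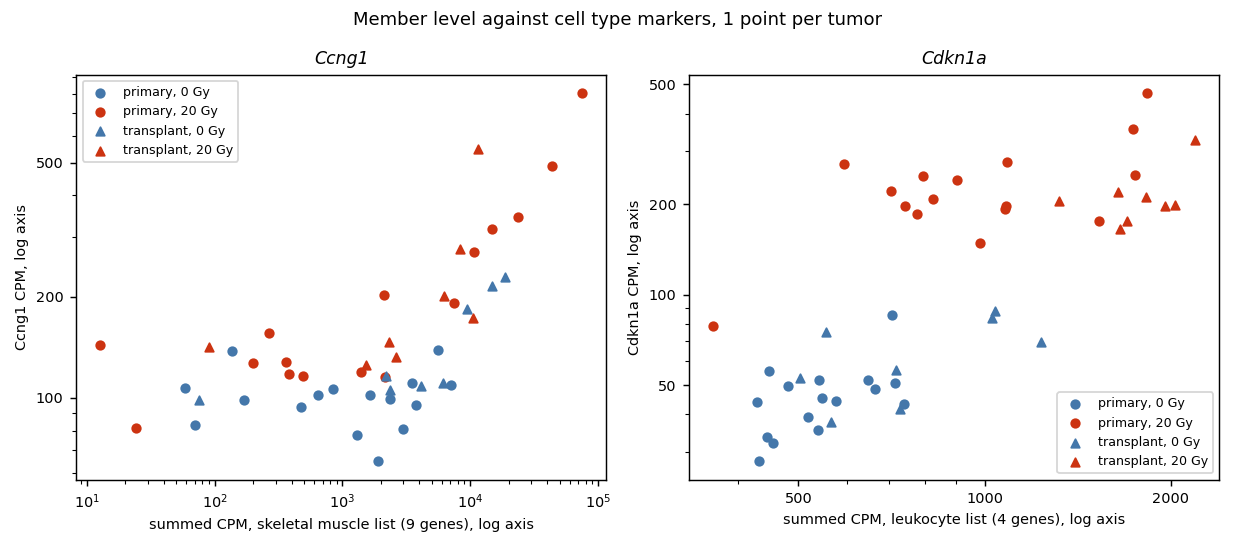
Left, Ccng1 CPM against the summed CPM of 9 skeletal muscle genes, and right, Cdkn1a CPM against the summed CPM of 4 leukocyte genes, for 48 tumors (circles primary, triangles transplant, blue 0 Gy, red 20 Gy, all axes logarithmic). Ccng1 reached 805 CPM in the tumor with the highest muscle sum, 75275 CPM, and the lowest irradiated Cdkn1a, 78.8 CPM, was in the tumor with the lowest leukocyte sum, 364 CPM.

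Cdkn1a had the smallest adjusted p of the 10 members in both primary comparisons. In isotype primary tumors it ran from 28.0 through a median of 44.6 to 85.6 CPM at 0 Gy and from 176 through 209 to 276 CPM at 20 Gy. Its log2 fold change was 2.21 (SE 0.23, 4.62-fold, edgeR adjusted p = 3.17e-08), and it ranked 3 of all genes by p. With anti-PD-1 it ran from 32.1 through 46.4 to 55.8 CPM at 0 Gy and from 78.8 through 228 to 469 CPM at 20 Gy (2.44, SE 0.24, edgeR adjusted p = 4.96e-09), and it ranked 1. No irradiated primary tumor reached down to its unirradiated group in either comparison.

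In isotype transplants Cdkn1a was 37.9, 56.1, 83.6 and 53.03 CPM at 0 Gy and 197, 205, 219 and 166 CPM at 20 Gy (1.77, SE 0.33, edgeR adjusted p = 0.00228). In anti-PD-1 transplants it was 88.6, 41.8, 69.6 and 75.1 CPM at 0 Gy and 212, 326, 199 and 176 CPM at 20 Gy (1.73, SE 0.33, edgeR adjusted p = 0.00711). Both pairs of groups were clear of each other. The call in anti-PD-1 transplants was lost without the unirradiated anti-PD-1 transplant replicate 4, at 1.77 (edgeR adjusted p = 0.0555). The difference in response between the models was -0.44 (95% interval -1.22 to 0.35) with isotype and -0.72 (-1.499 to 0.07) with anti-PD-1, neither called.

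Of the genes that promote cell death, Bax, which opens the outer mitochondrial membrane, was called higher in both primary comparisons. With isotype it ran from 14.2 through 18.9 to 24.8 CPM at 0 Gy and from 24.3 through 28.5 to 44.3 CPM at 20 Gy (0.72, SE 0.14, edgeR adjusted p = 0.000336), and 7 of 8 irradiated tumors lay above all unirradiated ones. With anti-PD-1 the medians were 18.8 and 26.4 CPM (0.47, SE 0.14, edgeR adjusted p = 0.0265), a call lost with no filter on low counts (edgeR adjusted p = 0.0704). In transplants it gave 0.40 (edgeR adjusted p = 0.424) and 0.72 (edgeR adjusted p = 0.0713). Bax shares 192 exon bases with Gm45808 on the same strand in the annotation used here. Gm45808 has no row in the gene count table, so reads from it there may be counted as Bax.

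Bbc3, which encodes the BH3-only protein PUMA, was called by edgeR in isotype transplants. There it was 7.71, 7.35, 8.11 and 7.87 CPM at 0 Gy and 18.3, 15.8, 15.4 and 14.2 CPM at 20 Gy (1.04, SE 0.26, edgeR adjusted p = 0.0212), a tight separation. With anti-PD-1 it was 8.98, 8.72, 8.39 and 8.06 CPM at 0 Gy and 16.97, 23.9, 16.2 and 11.1 CPM at 20 Gy (0.997, SE 0.26, edgeR adjusted p = 0.0523), which also did not overlap. That comparison passed with RLE size factors (edgeR adjusted p = 0.0498), DESeq2 (0.0126), limma voom (0.0452), the muscle covariate (0.0334) and without irradiated replicate 4 (0.0299). Primary tumors spread more, from 7.48 to 19.6 CPM at 0 Gy and from 12.2 to 20.8 CPM at 20 Gy with isotype, and gave 0.43 (edgeR adjusted p = 0.0893) and, with anti-PD-1, 0.28 (edgeR adjusted p = 0.329). The isotype primary comparison passed with DESeq2 (adjusted p = 0.0479), without the 2 tumors of highest muscle sum (0.0455) and with the library labelled parental tumor added (0.0355). The difference between the models was 0.61 (95% interval -0.02 to 1.24) with isotype and 0.72 (0.09 to 1.34) with anti-PD-1, and neither passed (edgeR adjusted p = 0.516 and 0.968).

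The isotype transplant call for Bbc3 was lost when any of 4 single tumors was left out, namely replicates 1, 2 and 4 at 0 Gy and replicate 1 at 20 Gy, with edgeR adjusted p from 0.0517 to 0.0850 and fold changes from 1.01 to 1.07. Phlda3, a repressor of the survival kinase Akt, was not called in any radiation comparison, with log2 fold changes of 0.18, 0.16, 0.45 and 0.63 in isotype primary, anti-PD-1 primary, isotype transplant and anti-PD-1 transplant tumors. Its primary tumors overlapped broadly, from 42.2 to 133.4 CPM at 0 Gy and from 54.5 to 115.3 CPM at 20 Gy with isotype.

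Gdf15 had the largest fold changes among the members in transplants, from very low levels. Untreated isotype transplants had 0.191, 0.252, 0.180 and 0.0897 CPM, from 4 to 11 counts each, and irradiated ones had 1.64, 1.70, 1.70 and 1.70 CPM, from 62 to 84 counts (3.22, SE 0.59, edgeR adjusted p = 0.00224). With anti-PD-1 the values were 0.160, 0.0715, 0.207 and 0.330 CPM at 0 Gy and 1.64, 2.71, 1.73 and 1.31 CPM at 20 Gy (3.26, SE 0.58, edgeR adjusted p = 0.00570). Both separations were complete.

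In isotype primary tumors Gdf15 ran from 0.696 through 1.85 to 4.72 CPM at 0 Gy and from 5.18 through 7.40 to 10.7 CPM at 20 Gy (1.87, SE 0.38, edgeR adjusted p = 0.000416). With anti-PD-1 it ran from 0.532 through 1.79 to 5.06 CPM at 0 Gy and from 1.92 through 5.74 to 8.84 CPM at 20 Gy (1.32, SE 0.37, edgeR adjusted p = 0.0161), where the groups overlapped. The difference between the models was 1.35 (95% interval 0.02 to 2.68, edgeR adjusted p = 0.502) with isotype and 1.94 (0.61 to 3.28, edgeR adjusted p = 0.909) with anti-PD-1, neither called.

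Sesn2, a stress protein that restrains the growth kinase mTORC1, was called in isotype primary tumors, from a median of 22.04 CPM at 0 Gy to 44.2 CPM at 20 Gy (0.83, SE 0.22, edgeR adjusted p = 0.00732). One untreated tumor at 61.0 CPM overlapped the irradiated group, 38.7 to 77.6 CPM. In isotype transplants it was 16.2, 17.8, 19.1 and 14.2 CPM at 0 Gy and 30.2, 36.5, 40.2 and 38.7 CPM at 20 Gy, with no overlap, and stood at 1.11 (SE 0.32, edgeR adjusted p = 0.0520). It passed there with DESeq2 (adjusted p = 0.0231), limma voom (0.0422), the muscle covariate (0.0326) and without unirradiated replicate 3 (0.0415). In anti-PD-1 transplants it gave 0.92 (edgeR adjusted p = 0.157), and in anti-PD-1 primary tumors 0.35 (edgeR adjusted p = 0.317). Zmat3, which encodes an RNA-binding zinc finger protein, gave 0.14, 0.34, 0.40 and 0.49 in the same order of groups as Phlda3, with no call.

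Some cell type markers moved with radiation. The 4 leukocyte genes summed to 429 to 710 CPM in untreated and 707 to 1749 CPM in irradiated isotype primary tumors, and to 503 to 1027 and 1318 to 1960 CPM in the matching transplants. With anti-PD-1 they summed to 448 to 740 and 364 to 1832 CPM in primary tumors, which overlapped. In anti-PD-1 transplants they summed to 555 to 1236 and 1698 to 2192 CPM, which did not. Of the 4 genes, 4, 2, 2 and 0 were called higher in isotype primary, anti-PD-1 primary, isotype transplant and anti-PD-1 transplant tumors. The 10 macrophage genes summed to 1849 to 3633 and 2311 to 4580 CPM in isotype primary tumors. The numbers called higher among them were 4, 3, 1 and 1 in the same order of comparisons. Of all genes 9.19%, 7.92%, 1.82% and 0.538% were called higher there. Of 6 neutrophil genes, 2, 2, 0 and 0 were called higher in that order. Of 10 mesenchymal genes only Vim was called, lower in both primary comparisons, where 9.1% and 3.25% of all genes were. The mesenchymal sum had medians of 31299 and 20097 CPM at 0 and 20 Gy in isotype primary tumors, with overlapping ranges. In isotype transplants they were 16049 and 15926 CPM. Of 5 epithelial genes tested, Krt18 alone was called, lower in isotype primary tumors. No gene of the T cell, endothelial or skeletal muscle lists was called in any of the 4 comparisons.

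With the mean of the leukocyte list as a covariate, a fit chosen after the data were seen, Gdf15 kept fold changes of 1.97, 1.39, 3.33 and 3.38 in isotype primary, anti-PD-1 primary, isotype transplant and anti-PD-1 transplant tumors, all called. Cdkn1a stood at 1.69, 2.06, 1.17 and 1.10, the last no longer called (edgeR adjusted p = 0.172). Trp53 in isotype primary tumors was 0.22 (edgeR adjusted p = 0.591), Mdm2 0.23 (edgeR adjusted p = 0.314) and Ccng1 0.27 (edgeR adjusted p = 0.749), none called, while Bax at 0.54 (edgeR adjusted p = 0.0497) and Sesn2 at 0.87 (edgeR adjusted p = 0.0439) were. In anti-PD-1 primary tumors Ccng1 (0.71, edgeR adjusted p = 0.207) and Bax (0.38, edgeR adjusted p = 0.116) lost their calls, as did Bbc3 in isotype transplants (0.60, edgeR adjusted p = 0.257). In all, 4 members were called in isotype primary tumors, 3 in anti-PD-1 primary tumors, 2 in isotype transplants and 1 in anti-PD-1 transplants under this covariate. The leukocyte sums differed with dose, so the covariate and radiation cannot be told apart fully.

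Other genes of the pathway were read from lists of known p53 targets and regulators. Of 41 further targets, 6 were higher and 4 lower in isotype primary tumors, beside 9.19% and 9.1% of all genes, so the lower count was near the background. In anti-PD-1 primary tumors 6 were higher and 1 lower, beside 7.92% and 3.25%. In isotype transplants 2 were higher and 0 lower, beside 1.82% and 0.103%, and in anti-PD-1 transplants 1 and 0, beside 0.538% and 0.0569%. Trp53cor1, the noncoding RNA also called lincRNA-p21 that lies near Cdkn1a, was higher in all 4 comparisons, with log2 fold changes of 1.71, 1.39, 2.66 and 2.84 and levels of 0.454 ± 0.275 CPM at 0 Gy and 1.48 ± 0.203 CPM at 20 Gy in isotype primary tumors (SD, n = 8).

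Of 12 further death genes, 4, 3, 0 and 0 were higher in isotype primary, anti-PD-1 primary, isotype transplant and anti-PD-1 transplant tumors, and none was lower. The shares of all genes higher were 9.19%, 7.92%, 1.82% and 0.538% in that order. Fas, the death receptor, moved from 6.54 ± 2.67 to 18.6 ± 8.05 CPM (1.504, edgeR adjusted p = 0.000219), and Trp53inp1, Pmaip1 and Aen gave 0.98, 0.79 and 0.45. Of 6 repair genes, 1 was lower in both primary comparisons and 0 in transplants, beside 9.1% and 3.25% of all genes lower in primary tumors. It was Polh, a DNA polymerase that copies past lesions (-0.59 with isotype, edgeR adjusted p = 0.000899). Among 6 feedback genes Pml, the organizer of nuclear bodies, was higher in both primary comparisons and in isotype transplants (with isotype in primary tumors 0.89, edgeR adjusted p = 0.00231). The phosphatase gene Ppm1d (-0.31, edgeR adjusted p = 0.0241) and the ubiquitin ligase gene Cop1 (-0.28, edgeR adjusted p = 0.0256) were lower in isotype primary tumors alone of the 4 comparisons. For a radiation response that differed between antibodies in primary tumors, edgeR called no gene, which covers Ppm1d and Cop1. Between models with isotype it called 0.00517% of all genes. Of 9 metabolic genes 1 was lower in isotype primary tumors, near the 9.1% of all genes, Abhd4 (-0.36, edgeR adjusted p = 0.0300). Among 12 regulators of p53 that could be tested, of 13 listed, 1 was higher in isotype primary tumors, near the 9.19% of all genes. It was Mdm4, a relative of Mdm2 that also restrains p53 (0.42, edgeR adjusted p = 0.0306).

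Cell cycle genes known to be repressed through the DREAM complex downstream of Cdkn1a formed a group with the opposite sign. In isotype primary tumors 13 of 14 were lower, where 9.1% of all genes were, and in anti-PD-1 primary tumors 9 of 14 were, where 3.25% were. The mitotic phosphatase gene Cdc25c moved from 15.0 ± 4.21 to 6.52 ± 1.55 CPM (SD, n = 8, -1.20, edgeR adjusted p = 0.000250), and Ccnb2, Plk1 and Birc5 gave -1.08, -1.05 and -0.82. In transplants none of the 14 was called by edgeR, where only 0.103% (isotype) and 0.0569% (anti-PD-1) of all genes were called lower. The list medians there were -0.43 and -0.78, beside -0.03 and 0.01 for all genes.

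**Figure D4:**
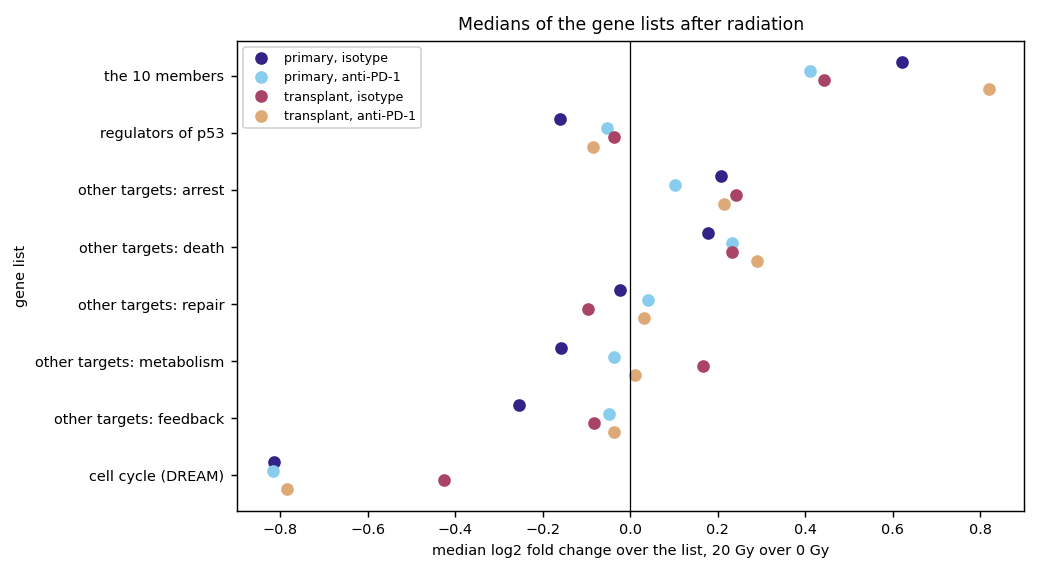
Median log2 fold change, 20 Gy over 0 Gy, of the 10 members and of 7 other gene lists in the 4 radiation comparisons (1 point per comparison, no error bars, since a median over genes is a description). The members lay between 0.41 and 0.82, and the cell cycle list between -0.82 and -0.43.

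Transplants were compared with primary tumors at each dose and antibody, to ask whether the models differed in these genes. Gdf15 was the only member called, lower in transplants in all 4 comparisons. At 0 Gy its log2 fold change was -3.50 (SE 0.56, edgeR adjusted p = 7.06e-05) with isotype and -3.55 (SE 0.56, edgeR adjusted p = 6.18e-05) with anti-PD-1. At 20 Gy it was -2.15 (SE 0.50, edgeR adjusted p = 0.00707) and -1.60 (SE 0.48, edgeR adjusted p = 0.0369). Of all genes, 6.41%, 3.96%, 2.4% and 3.72% were called lower in these comparisons, in the same order, and 3.88%, 3.39%, 2.47% and 3.04% higher. The share of all genes called lower in all 4 was not counted.

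The Gdf15 groups did not overlap at 0 Gy with either antibody or at 20 Gy with isotype, as held for 4.36%, 3.3% and 2.33% of all genes. Phlda3 was also clear of overlap in unirradiated anti-PD-1 tumors. At 20 Gy with anti-PD-1, where 1.28% of genes were clear of overlap, the Gdf15 groups overlapped, and the call was lost when any 1 of the 4 irradiated anti-PD-1 transplants was left out, with edgeR adjusted p of 0.0831, 0.0525, 0.132 and 0.0755 for replicates 1 to 4, and also with no filter on low counts (0.0581). These comparisons reuse the groups of the radiation comparisons. All transplants came from 1 line, so the line and the way of growing the tumor cannot be told apart. At 20 Gy with isotype the share of higher genes among all calls was 50.7%, beside 44.7% with RLE size factors in edgeR, 36.9% with DESeq2 (another test and scaling) and 63.7% with limma voom.

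The members with the next lowest values were Phlda3, at -0.77 (edgeR adjusted p = 0.0754) and -0.87 (edgeR adjusted p = 0.0532) in unirradiated isotype and anti-PD-1 tumors, and Sesn2, at -0.69 (edgeR adjusted p = 0.107) and -0.79 (edgeR adjusted p = 0.0738). Phlda3 was 28.8, 39.5, 41.8 and 44.6 CPM in untreated isotype transplants, against 42.2 to 133.4 CPM in primary tumors. Trp53 did not pass in any of the 4, with differences from 0.19 to 0.39, all positive. Among the regulators, Cdkn2a, whose products include the Mdm2 inhibitor Arf, was lower in transplants in all 4, at 359 ± 107.1 CPM (n = 4) against 919 ± 309 CPM (n = 8) in untreated isotype tumors (SD, -1.35, edgeR adjusted p = 0.0367). That count is per gene and not a level of Arf alone. Of the 41 further targets, 3, 2, 1 and 1 were lower and 0, 1, 1 and 0 higher in transplants. The shares of all genes lower were 6.41%, 3.96%, 2.4% and 3.72% in that order. Rprm was lower in all 4.

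No member passed the test for anti-PD-1 against isotype at 3 days. Over the 40 values of 10 members in 4 comparisons, log2 fold changes lay between -0.41 and 0.76, and none had an unadjusted edgeR p under 0.05. Across all genes edgeR called 0 (0%) in each comparison, with 3.66%, 10.1%, 0.678% and 2.65% of genes at an unadjusted p under 0.05 in unirradiated primary, irradiated primary, unirradiated transplant and irradiated transplant tumors, and DESeq2 called 6, 45, 1 and 1 genes. For Cdkn1a the intervals were -0.51 to 0.40, -0.27 to 0.63, -0.39 to 0.89 and -0.43 to 0.85 in that order. No member passed the test of whether the radiation response differed between antibodies or between models, where edgeR called 0.00517% of genes between models with isotype and 0% in the other tests, and for Trp53 in primary tumors that difference was -0.40 (95% interval -0.91 to 0.10).

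The 2 unreplicated libraries of line 402230 are given as values, scaled over all 50 libraries. The library labelled parental tumor, nearly free of leukocyte markers, had Mdm2 at 101.8 CPM and Bax at 43.6 CPM, above the highest untreated isotype tumor at 78.5 and 24.3 CPM. It lay below every untreated isotype primary tumor for 5 members, with Phlda3 at 19.1, Bbc3 at 3.77, Gdf15 at 0.159 and Sesn2 at 9.46 CPM beside Trp53. The library labelled cell line lay above untreated isotype transplants for 3 members and below them for 4, with Mdm2 at 76.7 and Cdkn1a at 33.8 CPM. Such positions were common: over all 19327 genes the library labelled parental tumor lay above every untreated isotype primary tumor for 25.7% and below for 31.1%, and the library labelled cell line lay above every untreated isotype transplant for 32.3% and below for 27.7%. With 1 library each these differences have no replicate check, and the labels remain in doubt.

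The relation of Trp53 to its targets was also asked within groups, across tumors. In 32 primary tumors, after removing group means of log2 CPM, 9 correlations of Trp53 with the other members gave 0 that passed (largest Pearson r 0.36 and Spearman rho 0.40, with Zmat3, permutation p = 0.0200 and 0.0213, adjusted over the 9 relations 0.180 and 0.191). Cdkn1a was compared with 8 other targets. It correlated with Ccng1 (r = 0.63, rho = 0.56, permutation p = 0.00217 and 0.00232, adjusted over 8 relations 0.0174 and 0.00928), Bbc3 (r = 0.58, rho = 0.46, permutation p = 0.00821 and 0.0186, adjusted 0.0328 and 0.0496) and Sesn2 (r = 0.43, rho = 0.60, permutation p = 0.0143 and 0.000740, adjusted 0.0380 and 0.00592).

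Without the 2 tumors farthest from the median of Cdkn1a, r fell to 0.38, 0.28 and 0.31 for these genes and none passed by Pearson. Leaving out extremes also narrows the range of Cdkn1a, so this fall cannot show what the linear relation rests on. By Spearman, Ccng1 (adjusted permutation p = 0.0467) and Sesn2 (0.0287) still passed. In the 16 transplants r was 0.74 for Ccng1 (rho 0.72, adjusted permutation p = 0.0181 and 0.0208), 0.49 for Bbc3 (rho 0.34, adjusted 0.0727 and 0.274) and 0.65 for Sesn2 (rho 0.71, adjusted 0.0344 and 0.0315). Cdkn1a also passed there with Mdm2 (r = 0.64, rho = 0.59, adjusted permutation p = 0.0204 and 0.0424) and Phlda3 (r = 0.70, rho = 0.63, adjusted 0.0204 and 0.0424). Neither had passed in primary tumors (Mdm2 r = 0.33, rho = 0.42, Phlda3 r = 0.38, rho = 0.31). The points share a library and its scaling, and both Cdkn1a and Ccng1 were often highest in tumors with much muscle, whose part in the correlation was not tested.

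The genes most like 3 members over the 48 tumors were named by Spearman rho of log2 CPM, which mixes the group differences with those within groups and is a description. For Trp53 they were Lrmp, Ptpn7, Phldb3, Slc37a1 and BC064078 (rho 0.77 to 0.74). For Cdkn1a they were Slfn1, Cfp, Dusp28, Tmem140 and Slfn2 (0.88 to 0.86), and for Mdm2 Tbk1, Tmbim4, Irf9, Npc2 and Ifi27l2a (0.80 to 0.77). Among members, Cdkn1a lay closest to Ccng1 (0.78), Bax (0.78) and Mdm2 (0.74), and Trp53 to Ccng1 (0.46) and Cdkn1a (0.42).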

How the data were processed

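RNA was measured by poly(A)-selected, strand-marking RNA sequencing of 50 libraries. Per the labels and methods, the authors removed adapters and low-quality ends (Trimmomatic 0.36), mapped to mm10 (STAR) and tallied reads per GENCODE M17 gene (HTSeq). They deposited raw whole-number counts per gene. The strand setting of the counting is not given in the sources used here. Identifiers were matched without version to GENCODE M21, the annotation at hand, whose exon lengths gave CPM per kilobase.

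Groups followed the labels. The 48 tumors were fitted together in edgeR 4.0.16 (R 4.3.3) with 1 term per group, TMM scaling, filterByExpr and robust quasi-likelihood F-tests, with Benjamini-Hochberg adjustment over 19327 genes. The procedure was tested on simulated data. Of log2 changes of 1 and 2 put into irradiated isotype primary tumors, 56% and 80.6% were called. In irradiated isotype transplants 36% and 61.2% were called. False calls were 3 of 138 and 5 of 101, so a change missed in transplants weighs less than one missed in primary tumors. Only 100 and 98 genes were given changes of 1 and 2. The real comparisons called 3534 and 372 genes, far more than the 138 and 101 of the simulation. The adjustment was thus stricter in the simulation, and its shares do not give the recovery in the real data. DESeq2 1.42.0, limma 3.58.1 voom, other scalings, covariates and left-out tumors served as alternatives. Library totals were 31810461 to 54008259 counts. No pair of replicates agreed within sampling noise (136 pairs compared). Tumor titles carry a separate animal number for each of the 48 tumors, so replicates were taken as separate mice. Permutation tests used 100000 resamples. The 2 unreplicated libraries carry a different index format in the labels from the other 48.

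The genes and lists, and the 16 comparisons, were chosen with earlier results of these data known. The text names the 10 members, up to 4 genes per pathway list with the smallest adjusted p in isotype primary tumors, genes that define a count, and the 5 genes most like Trp53, Cdkn1a and Mdm2. Promoter windows came from RefSeq. The study's exome data were not analysed here.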

Additional observations from a re-analysis of the deposited data

Results flagged for a closer look

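Across 80 sets of 1 gene in 1 group, 6 had a tumor far from the others, where chance alone flags about 1 in 20. Mdm2 was lowest at 52.6 CPM in irradiated anti-PD-1 primary replicate 8, next to 78.1 CPM. Ccng1 was highest at 215 CPM in unirradiated anti-PD-1 transplant replicate 1, next to 116.5 CPM, and that tumor had the highest muscle sum of its group (14799 CPM). Bbc3 was highest at 19.6 CPM in unirradiated isotype primary replicate 2, next to 11.7 CPM. Gdf15 was lowest at 1.64 CPM in irradiated isotype transplant replicate 1, next to 1.70 CPM, a gap that is wide only against a narrow group. Zmat3 was highest at 70.9 CPM in irradiated anti-PD-1 primary replicate 4, the tumor with the highest muscle sum, next to 47.2 CPM. Sesn2 was highest at 77.6 CPM in irradiated isotype primary replicate 8, next to 50.9 CPM.

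In data outside the comparisons, the library labelled parental primary tumor had Mdm2 at 101.8 CPM and Bax at 43.6 CPM, above all untreated isotype tumors (at most 78.5 and 24.3 CPM). Over all genes, 25.7% lay above every untreated isotype primary tumor in that library. Its leukocyte genes summed to 0.546 CPM, against its label.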

How the results depend on the processing

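No paired analysis was possible because the labels give no replicate numbers that groups share. Leukocyte covariate and removal of the 2 tumors with most muscle were chosen after seeing the data. Members called moved by more than 1.5 times as follows, and smaller moves were within 6 to 8 (isotype primary), 4 to 5 (anti-PD-1 primary) and 2 to 4 (isotype transplant) members. Isotype primary radiation gave 4 and anti-PD-1 primary 3 with the leukocyte covariate, and anti-PD-1 transplants gave 5 with DESeq2 and 1 with that covariate (3 with RLE, voom or muscle). Transplant against primary gave 3 (muscle) and 3 (leukocyte) at 0 Gy isotype, and 2 (RLE), 3 (DESeq2), 3 (muscle) and 3 (leukocyte) at 0 Gy anti-PD-1. At 20 Gy anti-PD-1 it gave 0 with no filter and 0 with the leukocyte covariate. The Pearson correlations of Cdkn1a went from 3 passing to 0 without the 2 farthest tumors, while 2 still passed by Spearman.

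Over all genes, radiation in isotype primary tumors called 1083 (leukocyte) and in anti-PD-1 primary 1332 (leukocyte) and 1420 (2 tumors removed). Isotype transplants called 599 (DESeq2), 228 (no filter) and 159 (leukocyte), and anti-PD-1 transplants 481 (DESeq2), 311 (voom), 30 (no filter), 225 (muscle) and 16 (leukocyte). With the library labelled parental tumor added to untreated isotype primary tumors, which enters the shared spread, isotype transplants called 153, anti-PD-1 transplants 14 and 20 Gy anti-PD-1 transplant against primary 683. Transplant against primary called 1449 (DESeq2) at 20 Gy isotype, and 2071 (DESeq2), 742 (no filter), 22 (leukocyte) and 2296 (2 tumors removed) at 20 Gy anti-PD-1. Anti-PD-1 called 6, 45, 1 and 1 by DESeq2 and 1 (leukocyte) in irradiated primary tumors. Radiation by model with isotype called 0 with RLE, no filter, muscle, the added library and the 2 tumors removed, 4 with DESeq2 and 2 with leukocyte, and with anti-PD-1 3 by DESeq2. Radiation by antibody in primary tumors called 9 (DESeq2) and 1 (leukocyte).

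Leaving out 1 transplant at a time gave, for isotype transplant radiation, 2 to 4 members and 72 to 631 genes, and for anti-PD-1 1 to 4 members and 3 to 180 genes, with 3 genes and 1 member without unirradiated anti-PD-1 replicate 4. Transplant against primary gave 1009 to 1414, 627 to 1236, 350 to 575 and 154 to 1664 genes at 0 Gy isotype, 0 Gy anti-PD-1, 20 Gy isotype and 20 Gy anti-PD-1, with 1, 1, 1 and 0 to 1 members. Radiation by model with isotype gave 0 to 2 genes and the other interactions and anti-PD-1 comparisons 0. Signs turned for small changes. With the leukocyte covariate, Phlda3 after radiation was -0.15 in isotype and -0.032 in anti-PD-1 primary tumors, Trp53 -0.071 in anti-PD-1 primary tumors, Ccng1 -0.82 in isotype transplants, and Cdkn1a -0.021 and Bax -0.018 between untreated isotype models. Without the 2 tumors, Trp53 (-0.0047) and Phlda3 (-0.0069) turned in anti-PD-1 primary tumors. Ccng1 in isotype transplants was -0.093, -0.051 and -0.031 without unirradiated replicate 1, unirradiated replicate 2 or irradiated replicate 3, within a range of -0.093 to 0.35 over all left-out tumors. Bax between untreated isotype models was -0.12 with the library labelled parental tumor added. The cause was not tested. Depth limits Gdf15, with 4 to 13 counts in each unirradiated transplant.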
